A study of Drosophila melanogaster with 4 samples.

Results

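The cytosolic ribosomal proteins of Drosophila melanogaster, the RpL and RpS genes, were followed in embryos that expressed the microRNA mir-3 ectopically. Members were all probes of the array, controls aside, whose gene symbol, reached through the CG number in the probe's identifier, began with RpL or RpS followed by a digit or P. The rule found 165 of 32162 distinct probes, which stood for 91 genes, 54 of the large and 37 of the small subunit. A probe was kept where either genotype gave a signal well above background on at least 3 of the 4 arrays. That left 164 probes and 90 genes among 14861 genes and unnamed transcripts tested. The member lost, RpL10Aa, had 1 probe, well above background on 0 arrays in mir-3 ectopic and on 0 arrays in w1118 RNA.

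The mir-3 ectopic embryos were homozygous for the ectopic expression, in the w1118 background, and the wild-type embryos were w1118. Both were whole embryos of 6 to 8 h after laying, collected over 2 h at 25 °C and handled alike. What promoter or driver lay behind the ectopic expression the labels do not say. Each 2-colour array carried RNA of both genotypes, from 3 independently isolated biological replicates. The mir-3 ectopic RNA carried the dye Cy3 on the arrays of replicates 1, 2 and 3 and Cy5 on a 4th array, a dye swap of replicate 1.

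A cytosolic ribosome is built from a small subunit, which reads the message, and a large subunit, which joins amino acids, each made of ribosomal RNA and many proteins, most of them present once. The protein genes are among the most strongly transcribed of a growing cell and are usually regulated together. In Drosophila, loss of a copy of many of them gives the Minute phenotype of slow development and short bristles. Several proteins are encoded by a pair of paralogous genes, of which one is often used mainly in the germ line.

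Each array held 45020 spots, 233 of them for the ribosomal proteins, and 0 spots were saturated. The share of spots well above background was 56.6% to 63.6% for mir-3 ectopic RNA and 58.1% to 64.8% for w1118 RNA. The number of arrays limits the precision. All 90 tested members had a probe well above background in both genotypes on all 4 arrays. Over 14856 genes, Pearson's r between arrays of the same orientation was 0.941 to 0.945, and between each of these and the dye swap it was 0.752 to 0.800. These points share arrays and probes and are no independent replicates. Of 16 genes listed as markers of mid-stage embryos, 15 were tested.

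Values below are log2 ratios of mir-3 ectopic over w1118, so a negative value is lower in mir-3 ectopic embryos. By the labelled dyes the authors' deposited value table runs the other way. Were the labelled dyes reversed, every sign below would turn. In whole embryos fewer cells of a type and less RNA per cell cannot be told apart.

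After loess, most ribosomal protein genes read lower in mir-3 ectopic embryos on the 3 arrays with mir-3 ectopic RNA in Cy3 and not on the dye swap, a pattern that turned with processed signals in replicate 3 (28 of 90 genes below 0) and on the swap (74 below 0) and with median centring in replicate 1 (5 below 0). The median over the 90 genes was -0.15, -0.17 and -0.18 on the arrays of replicates 1, 2 and 3, and 0.04 on the swapped array of replicate 1. Below 0 were 73, 70 and 74 of the 90 genes on the first 3 arrays and 39 on the dye swap. The medians over all genes were 0.017, -0.0091, 0.0011 and -0.0075 in the same order. Loess sets them near 0 on each array, so they cannot show whether a shift was shared by the whole array. Other scalings moved the all-gene medians of single arrays, to between -0.15 and 0.14 with the scanner's processed signals and between -0.33 and 0.43 with median centring in place of loess. Relative to all genes the members' median was -0.027, -0.068 and -0.063 in replicates 1, 2 and 3 and 0.037 on the swap with processed signals, the same signs at smaller sizes. With median centring it was 0.093, -0.56 and -0.28 in replicates 1, 2 and 3 and 0.53 on the swap, so that replicate 1 turned. Replicate 1 and its swap came from the same RNA, so the gap between 73 and 39 genes is one between hybridizations. The 3 arrays of the same orientation ordered the 90 genes alike, at r between 0.903 and 0.921 and Spearman's rho between 0.865 and 0.880. With the dye swap, r was 0.298 to 0.416 and rho between -0.13 and -0.0011. The correlations are descriptions over genes that share arrays and probe chemistry.

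**Figure D1:**
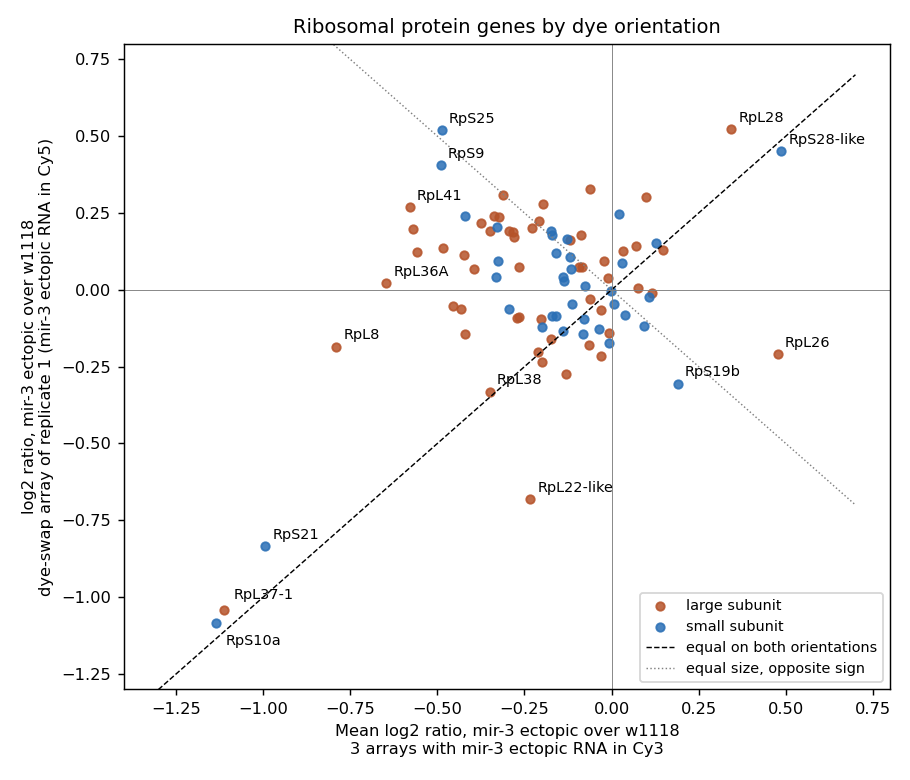
Each point is 1 of 90 ribosomal protein genes, with its mean log2 ratio of mir-3 ectopic over w1118 on the 3 arrays with mir-3 ectopic RNA in Cy3 on the x axis and its ratio on the dye-swap array on the y axis. RpS10a, RpL37-1 and RpS21 lie near the dashed line of equal ratios, while RpS25 and RpS9 lie near the dotted line of equal size and opposite sign.

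Gene by gene, 30 of the 90 members (33.3%) had the same sign on all 4 arrays, against 55.3% of all genes. Another 41 (45.6%) had a sign on the 3 arrays of the same orientation that the dye swap turned, against 20.4% of all genes. In the mean of the 3 replicates, which cancels the dye within replicate 1 alone, 42 members were lower in mir-3 ectopic embryos at a limma adjusted p under 0.05, where 24.4% of all genes tested were called lower. Another 4 members were higher, where 24.3% of all genes were, and 44 were not called. The median of the 90 was -0.12 and that of all genes -0.0018. Of the 42 genes called lower, 20 had the same sign on all 4 arrays and 22 were above 0 on the dye swap. Without the swap, 54 members were lower and 6 higher, and with the swap standing for replicate 1, 12 and 2. The count of lower genes was 22 without replicate 2, 18 without replicate 3, 26 with the slide as a random block and 51 within the slide of replicates 2 and 3. It was 5 with processed signals and 0 with median centring. The shares of all genes called in these variants are not reported here.

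A second fit gave each gene a genotype effect and a dye effect from the 4 arrays. Its genotype effect is the mean of the 2 dye orientations, and its spread comes only from the 3 arrays of the same orientation, with 2 residual degrees of freedom. The swap therefore weighs as much as those 3 arrays together and adds no spread of its own. It entered as a separate array although its RNA was that of replicate 1, which thus weighs more than replicates 2 and 3. The SE and adjusted p of this fit do not hold the spread between swapped hybridizations. In that fit 32 members were lower, where 27.5% of all genes were called lower, and 5 were higher, where 26.9% of all genes were; 53 were not called. Both fits called 29 genes lower and 4 higher. The median genotype effect was -0.054, against -0.0050 for all genes, and it turned to 0.28, against 0.079 for all genes, when median centring replaced loess. With the processed signals of the scanner software it was -0.061, against -0.074 for all genes, so that members minus all genes was -0.049 with loess, 0.013 with processed signals and 0.20 with median centring. Processed signals left 8 members lower and 2 higher, with 5350 calls among all genes where loess gave 8069. Median centring left 0 members called, with 15 calls among all genes. Of the 90 genes 48 lay within 0.1 of 0 and 9 at 0.3 or farther. With the dye separated the family's median therefore had no sign that held across scalings, and the 9 genes are taken one by one below.

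The 3 lowest genes kept nearly the same ratio in both orientations. RpS10a (CG12275), which encodes a small-subunit protein and has the paralogue RpS10b, had ratios of -0.96 on the first array of replicate 1 and -1.08 on its swap, and -1.25 and -1.19 in replicates 2 and 3. All 4 arrays lay on the same side. Its mean was -1.16 ± 0.12 (SD, n = 3; limma adjusted p 8.9e-06), and -1.11 ± 0.06 (SE; limma adjusted p 7.0e-06) in the fit with the dye term, 2.16-fold lower. Its 1 probe was dim for this family, at a mean log2 signal of 8.61.

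RpL37-1 (CG9091), which encodes a zinc-finger protein of the large subunit, had ratios of -1.07 on the first array of replicate 1, -1.04 on its swap and -1.13 in each of replicates 2 and 3. The 4 arrays differed by less than 0.1. Its mean was -1.11 ± 0.04 (SD, n = 3; limma adjusted p 3.4e-06), and with the dye as a term it was -1.08 ± 0.04 (SE; limma adjusted p 9.9e-07). It too rested on 1 probe, dim for this family at a mean log2 signal of 10.93.

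RpS21 (CG2986), a small-subunit protein whose loss in Drosophila causes overgrowth of the blood-forming organs, had ratios of -1.03, -0.83, -1.06 and -0.89 on the first array of replicate 1, its swap, and replicates 2 and 3. Its mean was -0.96 ± 0.09 (SD, n = 3; limma adjusted p 1.3e-05), and with the dye as a term it was -0.91 ± 0.05 (SE; limma adjusted p 5.2e-06). Both of its probes were lower on every array. The bright probe, at a mean log2 signal of 15.51, read -1.37, -0.86, -1.46 and -1.47 in the same order, and the dimmer one, at 11.47, read -0.70, -0.81, -0.66 and -0.30. The dye effect was 0.29 for the bright probe and -0.13 for the dim one, a positive value meaning brighter in Cy5.

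RpL8 (CG1263), which lies by the peptidyl transferase centre, was lower on all 4 arrays but far less so on the swap. Its ratios were -0.78 on the first array of replicate 1 and -0.18 on its swap, and -0.84 and -0.75 in replicates 2 and 3. The genotype effect with the dye as a term was -0.49 ± 0.04 (SE; limma adjusted p 3.9e-05), and the dye effect was 0.30 (limma adjusted p 0.0083). RpL22-like (CG9871), a paralogue of RpL22 known from the germ line, went the other way about the dye. It read -0.19, -0.68, -0.25 and -0.26 in that order of arrays, lower on all 4 and lowest on the swap. Its genotype effect was -0.46 ± 0.04 (SE; limma adjusted p 4.6e-05) and its dye effect -0.22.

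RpL38 (CG18001), a small protein whose loss in the mouse disturbs the axial skeleton, read -0.43, -0.33, -0.37 and -0.25 on the first array of replicate 1, its swap, and replicates 2 and 3. All 4 arrays were low and the swap lay among the rest. Its genotype effect was -0.34 ± 0.05 (SE; limma adjusted p 5.8e-04), and its dye effect of 0.01 did not pass. That genotype effect was 0.01 under median centring, below the 0.079 of all genes. RpL38 missed the threshold in the 3-replicate mean with the processed signals (-0.29, limma adjusted p 0.13) and with unpaired channels (limma adjusted p 0.13). RpL36A read -0.62, 0.02, -0.77 and -0.55, lower on 3 arrays and level on the swap. Its genotype effect was -0.31 ± 0.05 (SE; limma adjusted p 0.0013), with a dye effect of 0.33. Under median centring that genotype effect was 0.034, again below the 0.079 of all genes. With the processed signals that effect was -0.28 and RpL36A did not pass (limma adjusted p 0.061).

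Further large-subunit genes were called lower with the dye as a term at smaller sizes. The genotype effect was -0.28 for RpL31, which sits at the exit of the peptide tunnel, -0.25 for RpL40, made as a fusion to ubiquitin, -0.25 for RpL9 and -0.19 for RpL36. It was -0.18 for RpL12 and RpL23, -0.17 for RpL34b and RpL7, -0.16 for RpL14 and RpL41, -0.15 for RpL24 and RpL32 and -0.12 for RpL24-like and RpL34a. Each of these except RpL24-like and RpL34a was also called lower in the 3-replicate mean. The call of RpL41 held in 1 of 8 other settings. For RpL7 the dim probe was at -0.27 and the bright one at -0.06 (limma adjusted p 0.29). Of the small subunit, RpS5a (-0.18), RpS30 (-0.16), RpS7 (-0.13), RpS16 (-0.12) and RpS15Ab (-0.12) were called lower with the dye as a term. The calls of RpS16 and RpS15Ab held in 3 of 8 other settings each. With the processed signals RpL31 alone of the genes in this paragraph passed (limma adjusted p 0.048). Every gene of this paragraph took a positive genotype effect when median centring replaced loess. There the median of all genes was itself 0.079, and 0 members were called. RpL31 (0.061), RpL7 (0.074) and RpS7 (0.067) stayed below that median.

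The proteins of the stalk, which recruits elongation factors to the large subunit, showed how far a call could rest on orientation. RpLP0, its base, read -0.13, -0.27, -0.14 and -0.12 on the first array of replicate 1, its swap, and replicates 2 and 3, lower on each. Its genotype effect was -0.20 ± 0.04 (SE; limma adjusted p 0.0020). RpLP0-like, a relative of it, had a genotype effect of -0.21 and read -0.17, -0.20, -0.17 and -0.29. RpLP1 read -0.55, 0.12, -0.60 and -0.53, so that the swap stood opposite to the rest, and its genotype effect was -0.22 (limma adjusted p 0.0018). RpLP2, called lower in the 3-replicate mean at -0.21, read 0.31 on the swap and had a genotype effect of -0.0022. Under median centring the genotype effect turned to 0.12 for RpLP0, 0.10 for RpLP0-like and 0.13 for RpLP1, against 0.079 for all genes. With the processed signals none of these 3 passed (limma adjusted p 0.062, 0.10 and 0.13 in that order).

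**Figure D2:**
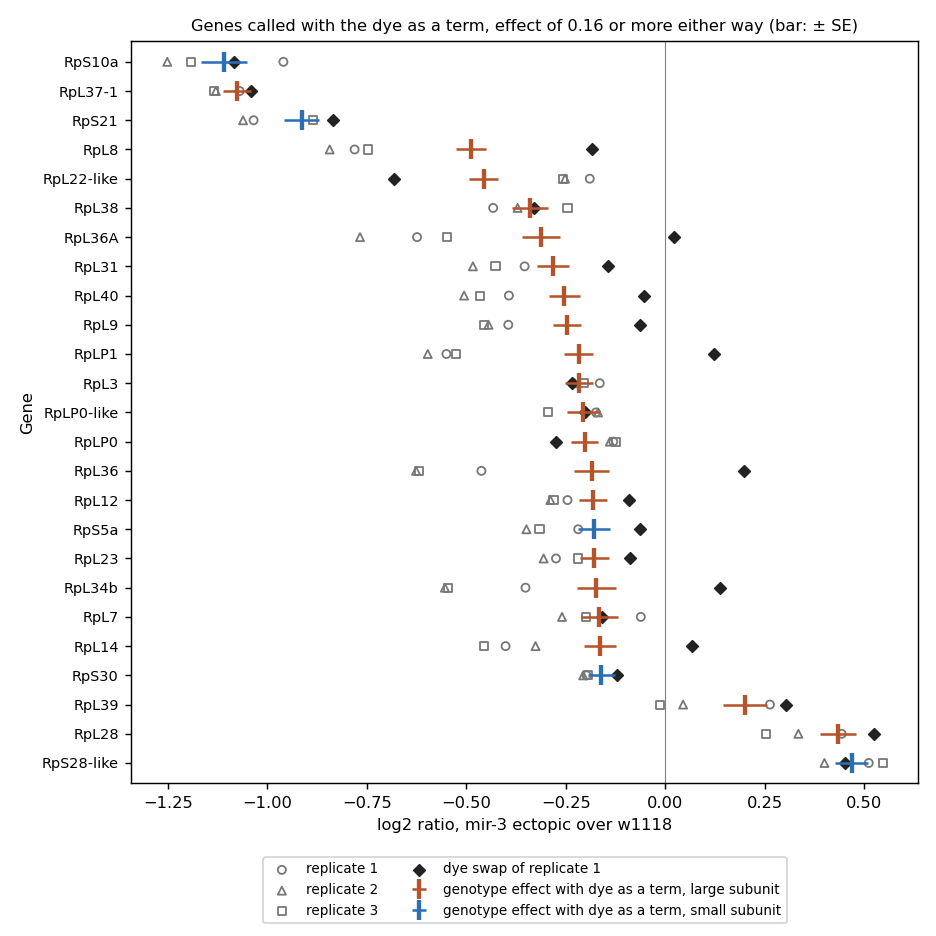
The 25 genes called in the fit with the dye as a term whose genotype effect was 0.16 or more in either direction, from the lowest genotype effect at the top to the highest at the bottom, with the log2 ratio of mir-3 ectopic over w1118 on the x axis; coloured marks with bars are the genotype effect ± SE and the other symbols are the 4 arrays. Arrays lie close together for RpL37-1, RpL38 and RpS28-like and far apart for RpL8, RpLP1 and RpL36A. Under median centring in place of loess 26 of all 37 genes called changed sign, where the median of all genes was 0.079.

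Few members were higher. RpS28-like (CG34182), a relative of the small-subunit genes RpS28a and RpS28b, read 0.51 on the first array of replicate 1 and 0.45 on its swap, and 0.40 and 0.55 in replicates 2 and 3. All 4 arrays were high. Its mean was 0.48 ± 0.07 (SD, n = 3; limma adjusted p 2.3e-04) and its genotype effect with the dye as a term 0.47 ± 0.04 (SE; limma adjusted p 7.9e-05), 1.38-fold higher. It rested on 1 probe, dim for this family at a mean log2 signal of 7.97. RpL28 (CG12740) read 0.44, 0.52, 0.33 and 0.25 in that order, high on all 4, with a genotype effect of 0.43 ± 0.05 (SE; limma adjusted p 1.7e-04). In the 3-replicate mean it missed the threshold with the processed signals (0.36, limma adjusted p 0.058).

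RpL7A (CG3314) read 0.15, 0.13, 0.13 and 0.16, a small rise on every array, with a genotype effect of 0.14 (limma adjusted p 0.012). RpL26 (CG6846), which lies near the tunnel exit, read 0.42, -0.21, 0.45 and 0.56, so that the swap was low where the others were high. Its mean of 0.37 ± 0.24 (SD, n = 3; limma adjusted p 0.0096) became a genotype effect of 0.13 (limma adjusted p 0.029) beside a dye effect of -0.34, and 0.0094 (limma adjusted p 0.96) with the processed signals. RpL39, among the shortest proteins of the large subunit, passed only in the dye-term fit, at 0.20 (limma adjusted p 0.018), and read 0.26, 0.30, 0.05 and -0.01.

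Some genes with a wide gap between orientations lost their call with the dye as a term. RpS25 (CG6684), a protein of the small subunit's head, read -0.50 on the first array of replicate 1 and 0.52 on its swap, and -0.49 and -0.47 in replicates 2 and 3. Its 3-replicate mean was -0.32 ± 0.28 (SD, n = 3; limma adjusted p 0.030), its genotype effect 0.02 ± 0.04 (SE; limma adjusted p 0.73) and its dye effect 0.50, the largest of the family. RpS9, which binds the body of the small subunit, read -0.42, 0.41, -0.51 and -0.54, with a genotype effect of -0.04 (limma adjusted p 0.39). RpS4 read -0.26, 0.24, -0.52 and -0.48 and had a genotype effect of -0.09 (limma adjusted p 0.21). RpL27 read -0.18, 0.22, -0.43 and -0.51 and had one of -0.08 (limma adjusted p 0.32). In all 4 genes the array of replicate 1 and its swap, made from the same RNA, stood on opposite sides of 0. In all, 13 genes were called lower in the 3-replicate mean and not with the dye as a term.

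The dye term itself was called for 32 members with Cy5 brighter, where 7.18% of all genes were called that way, and for 3 with Cy3 brighter, where 9.26% of all genes were. The median dye effect of the members was 0.087, against -0.010 for all genes. With the processed signals the members' median was -0.051, where 0 members were called with Cy5 brighter and 1 with Cy3 brighter. With median centring it was 0.48, with 0 called. Both scalings moved the array medians of all genes too, so these 2 values are not relative to all genes. Members minus all genes was -0.027, -0.068 and -0.063 in replicates 1, 2 and 3 and 0.037 on the swap with processed signals. In that order it was 0.093, -0.56, -0.28 and 0.53 with median centring. Single members ran from -0.34 for RpL26 to 0.50 for RpS25, and RpS25 kept 0.23 with the processed signals. The 3 members brighter in Cy3, RpL26, RpL22-like and RpS19b, were among the dimmer ones, at mean log2 signals of 11.01, 7.57 and 9.01.

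Probes for ribosomal proteins were among the brightest of the array. Their median log2 signal was 16.04, against 9.35 for the other kept probes, and of the 152 probes at 16 or over 86 (56.6%) belonged to them. At that brightness the median dye effect was 0.17 for the ribosomal protein probes and 0.10 for the others, and it was above 0 for 90.7% and 75.8% of them. Between 12 and 14 the medians were -0.09 and -0.03. Over the 164 ribosomal protein probes brightness and dye effect correlated at r of 0.52 and rho of 0.64, while over the 19565 other probes r was -0.02. Brightness and genotype effect correlated at r of 0.03 and rho of -0.15 over the 164. These are descriptions over probes that share the arrays and, in many cases, a gene. Their part in the ratios was not tested.

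**Figure D3:**
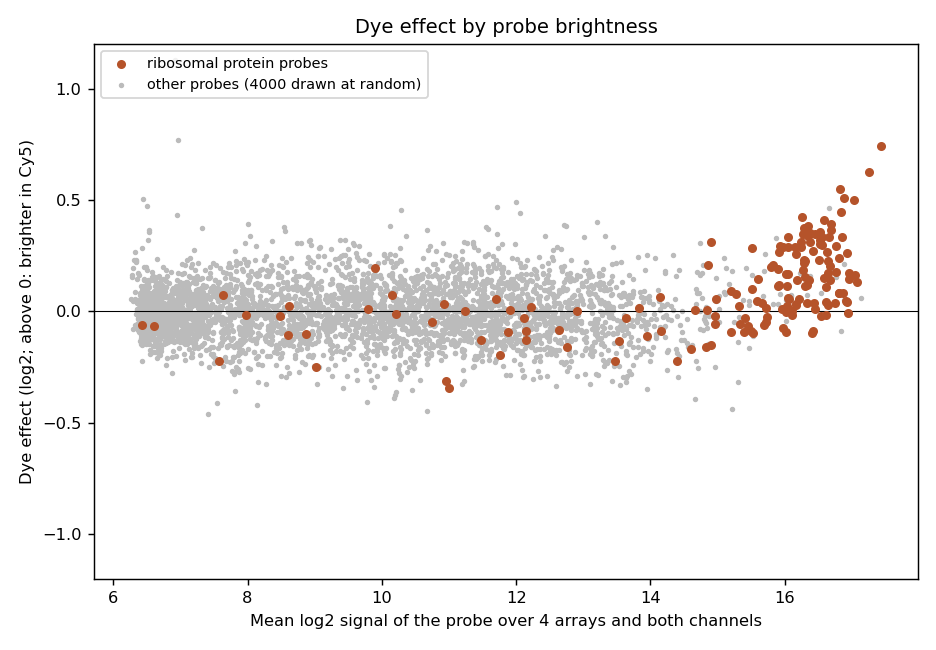
Dye effect of each kept probe, in log2 units with positive values brighter in Cy5, against its mean log2 signal over 4 arrays and both channels. All 164 ribosomal protein probes and 4000 other probes drawn at random are shown. The ribosomal protein probes at a signal of 16 or over lie mostly above 0, with a median of 0.17 after loess. Over the 90 genes at any signal the median was 0.087 with loess and -0.051 with processed signals.

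The subunits were compared by counts and medians. Of 53 large-subunit genes 30 were lower (56.6%) and 3 higher (5.66%) in the 3-replicate mean. Of 37 small-subunit genes 12 were lower (32.4%) and 1 higher (2.70%), where 24.4% of all genes were lower and 24.3% higher. With the dye as a term 23 large-subunit genes were lower (43.4%) and 4 higher (7.55%). Of the small subunit 9 were lower (24.3%) and 1 higher (2.70%), beside 27.5% lower and 26.9% higher among all genes. The gap between the subunit medians turned on the dye-swap array. Large minus small was -0.06, -0.10 and -0.12 on the arrays of replicates 1, 2 and 3 and 0.06 on the dye swap. It was -0.02 between the medians of -0.073 and -0.049 with the dye as a term. Both of these medians turned to 0.28 when median centring replaced loess, against 0.079 for all genes. The median dye effect was 0.10 for the large and 0.04 for the small subunit. Without the 5 genes named -like, 40 members were lower and 3 higher in the 3-replicate mean, and 29 and 4 with the dye as a term.

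Paralogues gave a comparison of genes that encode forms of the same protein. The names gave 14 pairs among 25 genes, RpS19a among them although it was reached only by an accession and is no member, and 8 pairs kept the sign of their difference on all 4 arrays. With 3 replicates an exact two-sided sign-flip permutation test cannot go below p = 0.25, and adjusted over the 14 pairs every p was 0.35 or 0.50, so no pair difference passed. The differences are given with their spread.

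RpS10a minus its paralogue RpS10b was -0.84, -1.15, -1.12 and -1.09 on the first array of replicate 1, its swap, and replicates 2 and 3. The mean difference was -1.07 ± 0.07 (SD, n = 3). RpS10b itself was at -0.08 ± 0.05 (SD, n = 3; limma adjusted p 0.15). RpL37-1 minus RpL37-2 was -1.16, -1.37, -1.03 and -0.96 on the 4 arrays in that order and -1.09 ± 0.16 (SD, n = 3) in the mean, and RpL37-2 was at -0.02 ± 0.20 (SD, n = 3; limma adjusted p 0.84). In both pairs the difference exceeded its spread several times over and came from 1 partner.

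Other pairs differed less. RpS28-like stood above RpS28a by 0.35 ± 0.20 and above RpS28b by 0.42 ± 0.17 (SD, n = 3), on all 4 arrays in each case. RpS28a (0.13) and RpS28b (0.06) were not called, and their own difference of 0.07 ± 0.09 turned sign in replicate 3. RpS5a minus RpS5b, the second known from the ovary, was -0.33 ± 0.14 (SD, n = 3) and below 0 on all 4 arrays. RpL22-like minus RpL22 had the same sign on every array, RpL22-like being the lower by 0.27 ± 0.20 (SD, n = 3) and by 0.86 on the dye swap. RpS15Aa minus RpS15Ab was 0.15 ± 0.03 (SD, n = 3), with the sign kept on all 4 arrays. RpL7 minus RpL7-like was -0.16 ± 0.12 (SD, n = 3), also on all 4, though the swap was at -0.02.

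In 6 pairs the sign was not kept. RpL34a minus RpL34b was 0.26, 0.51 and 0.48 in replicates 1, 2 and 3 and -0.32 on the dye swap. RpS19b, known from the germ line, read 0.19, 0.19 and 0.19 in replicates 1, 2 and 3 and -0.31 on the swap, so that RpS19a minus RpS19b was -0.19 ± 0.14 (SD, n = 3) and 0.24 on the swap. RpL24 and RpL24-like (-0.11 ± 0.03), RpLP0 and RpLP0-like (0.06 ± 0.10) and RpS14a and RpS14b (-0.07 ± 0.11, SD, n = 3 each) turned sign on the swap too. RpS14a and RpS14b, RpS15Aa and RpS15Ab and RpL34a and RpL34b are close copies, so their probes may bind both transcripts and their separate values are uncertain.

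**Figure D4:**
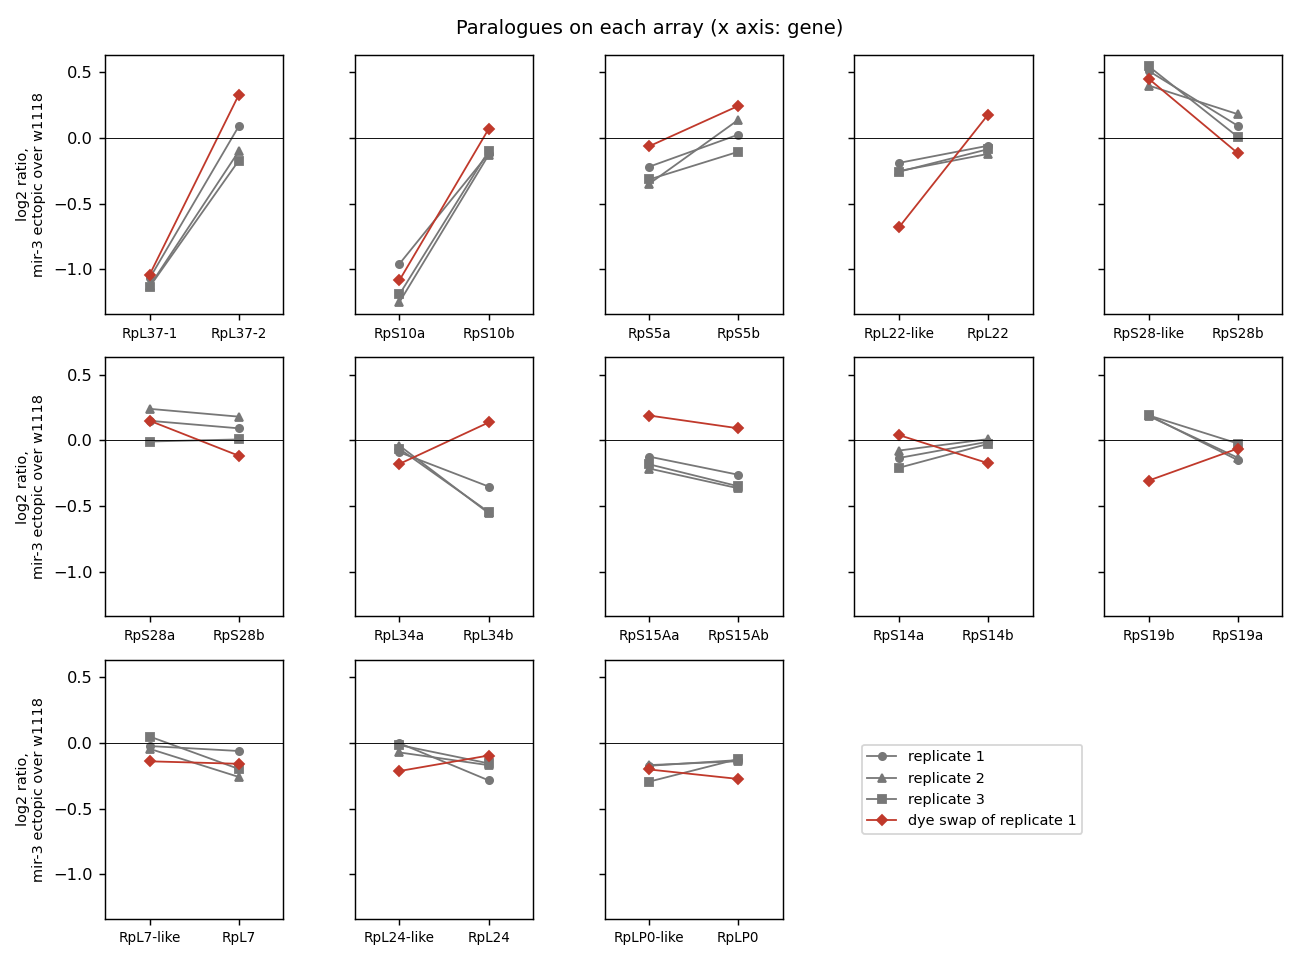
Log2 ratio of mir-3 ectopic over w1118 (y axis) of the 2 genes of a paralogue pair (x axis), with 1 line for each of the 4 arrays and the dye swap in red. The lines run parallel and steep for RpL37-1 with RpL37-2 and for RpS10a with RpS10b, and the red line crosses the others for RpL34a with RpL34b and RpS19b with RpS19a.

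Probes of the same gene did not always read alike. Among the 47 members measured by 2 or more probes, 5 had some called lower and some higher in the 3-replicate mean, RpL3, RpL27A, RpS14a and RpS26 among them, and 1 of the 5, RpS26, also with the dye as a term. Their gene values are uncertain. The bright RpS26 probe (mean log2 signal 16.84) had a genotype effect of -0.23 and the dimmer one (14.40) 0.22, although both were named for the same transcript. The brightest RpL27A probe (17.43) read -0.76 on the first array of replicate 1 and 0.63 on its swap, while its other probes lay between -0.19 and 0.25 on all arrays.

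RpL3 (CG4863), which shapes the peptidyl transferase centre, had 6 kept probes. A probe of middling brightness read -1.14 on the first array of replicate 1 and -1.11 on its swap, and -1.18 and -1.13 in replicates 2 and 3, at a mean log2 signal of 12.22, while the other 5 lay between -0.35 and 0.25. Of these 5, 2 were named for the same transcript as the low probe. The gene's genotype effect of -0.22 (limma adjusted p 0.0017) drew mostly on 1 probe.

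For RpL28 the rise was that of the brighter probe alone. This probe, named for transcript RC, read 0.97, 0.97, 0.72 and 0.52 on the first array of replicate 1, its swap, and replicates 2 and 3. The probe named for transcript RB read -0.08, 0.08, -0.05 and -0.01 and did not pass (limma adjusted p 0.72). For RpL7A the dimmer probe carried the call, at a genotype effect of 0.24 (limma adjusted p 0.0057), and the bright one was at 0.04 (limma adjusted p 0.59). RpL8, in contrast, had 3 probes that were each called lower, with genotype effects of -0.44, -0.24 and -0.78.

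**Figure D5:**
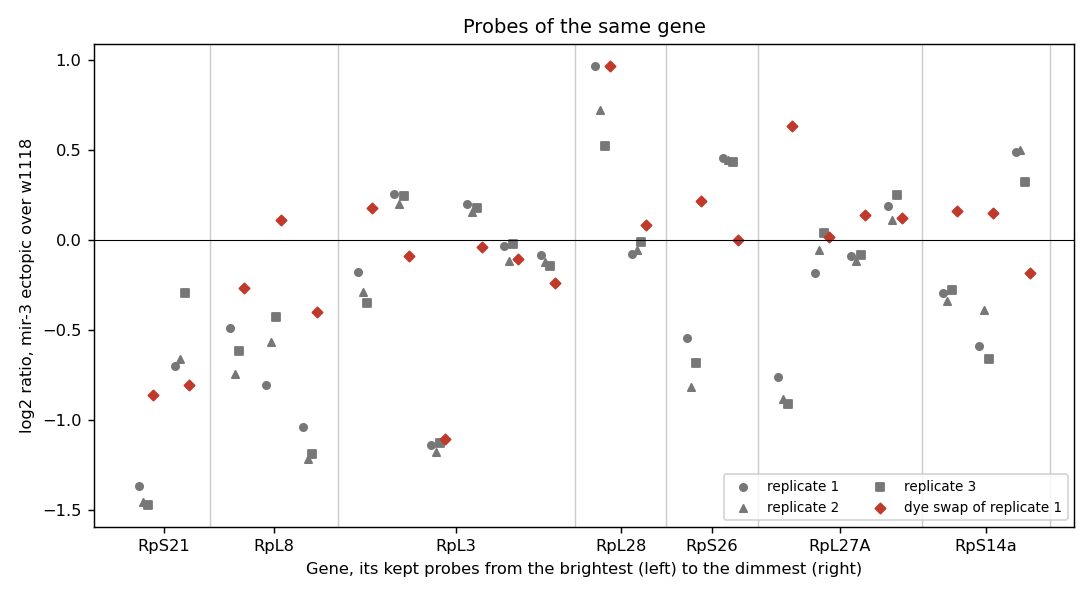
Log2 ratio of mir-3 ectopic over w1118 (y axis) of every kept probe of 7 ribosomal protein genes (x axis), from the brightest to the dimmest within a gene, on the 3 arrays with mir-3 ectopic RNA in Cy3 (grey) and on the dye swap (red). Both RpS21 probes lie below 0 on all arrays, 1 of 6 RpL3 probes lies near -1.1, and the brightest RpL27A probe stands at -0.76 and 0.63 on the 2 arrays of replicate 1.

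Genes that work on or build the ribosome are read beside the shares of all genes, of which 24.4% were called lower and 24.3% higher in the 3-replicate mean and 27.5% and 26.9% in the dye-term fit. Of 14 ribosome-associated and elongation factors 6 were lower and 4 higher in the 3-replicate mean, with a median of -0.09 that turned to 0.10 with processed signals, and 6 and 2 with the dye as a term, with a median of 0.01. Nacalpha, a chaperone of nascent chains, was at -0.46 and its partner bic at -0.32. Rack1, a scaffold on the small subunit, was at -0.28 and eEF1alpha1, which delivers aminoacyl-tRNA, at -0.29. The 4 higher ones were eEF2 (0.21), eEF1delta (0.16), Tctp (0.14) and larp (0.12). Of 25 initiation factors tested 7 were lower and 7 higher, 28% each and near the shares of all genes, and 9 and 6 with the dye as a term. Their median of 0.02 turned to -0.021 with median centring, where that of all genes was -0.022. It was 0.0017 with ribosomal protein probes at weight 0 in the loess. Those with the smallest p were eIF3l (0.85), eIF3j (-0.53), eIF6 (-0.52), which keeps the subunits apart, and eIF2beta (-0.38).

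Of 30 genes listed for ribosome biogenesis 8 were lower (26.7%) and 6 higher (20%), near the 24.4% and 24.3% of all genes, with a median of -0.04. The place of kra and Nup44A on that list is uncertain. The dye-term fit called 13 lower (43.3%, where 27.5% of all genes were) and 6 higher. The lowest in the 3-replicate mean was nclb (-0.55), and Nnp-1 was at -0.28. RIOK1 (0.34), Non1 (0.33), Gar1 (0.66), bys (0.28), Bka (0.25) and kra (0.16) were higher. Gar1 read -0.41 on the dye swap and above 0 on the other 3 arrays. Of 19 subunits and factors of RNA polymerases I and III, which make ribosomal and 5S RNA, 4 were lower and 4 higher (21.1% each, again near the shares of all genes, with a median of -0.04), with Polr3F at -0.78 and Polr3B at -0.55 and with Polr1E at 0.31 and Polr3C at 0.27. The fit with the dye term called 8 lower and 4 higher.

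Among 17 genes of growth control 7 were higher (41.2%) and 3 lower (17.6%) in either fit, where 24.3% and 24.4% of all genes were in the 3-replicate mean and 26.9% and 27.5% with the dye as a term. The median was 0.09. Tsc1 (0.61) and gig (0.42), whose products together restrain the TOR kinase, were higher, and Rheb (-0.23), which activates it, was lower. Trf2 (0.46), a TBP-related factor that serves ribosomal protein promoters in Drosophila, and foxo (0.33), a factor that insulin signalling restrains, were higher, and Akt (-0.16) and Max (-0.20) were lower. Myc (0.09, limma adjusted p 0.11) did not pass. Each of these values is a 3-replicate mean.

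Of 72 mitochondrial ribosomal protein genes, which serve a separate ribosome, 30 were lower (41.7%) and 12 higher (16.7%) in the 3-replicate mean, where 24.4% and 24.3% of all genes were, with a median of -0.09. The dye-term fit called 36 lower (50%) and 10 higher (13.9%), where 27.5% and 26.9% of all genes were, with a median of -0.10. That median turned to 0.095 when median centring replaced loess, against 0.079 for all genes. On the first array of replicate 1, its swap, and replicates 2 and 3 their median was -0.04, -0.14, -0.08 and -0.10. It stayed below 0 on the swap, where that of the cytosolic genes was 0.04. mRpL48 stood far below the rest at -2.52 ± 0.14 (SD, n = 3), with mRpS14 at -0.61 and mRpS35 at -0.41, and the 12 higher ones ran from 0.13 for mRpL33 to 0.44 for mRpL45.

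Markers of other cells and stages were read beside the paralogues known from the germ line, again where 24.4% of all genes were called lower and 24.3% higher. Of 15 germ cell and ovary markers tested 7 were higher (46.7%) and 4 lower (26.7%, near the share of all genes; median 0.08), from -1.76 for pgc and -1.21 for osk to 1.68 for zpg. AGO3 was at 0.68, gcl and otu at -0.21 each, and vas, a defining marker of germ cells, at -0.060 and not called. Of 9 testis markers 3 were tested, with 1 higher, tomb at 0.24, and the other 6, dj and betaTub85D among them, had no kept probe. Of 11 markers of the egg and the early maternal stage 6 were lower (54.5%) and 4 higher (36.4%; median -0.80), from -3.26 for dhd and -2.56 for alphaTub67C to 0.71 for smg, and bcd (0.63), CycB3 (0.53) and plu (0.49) were the other higher ones. Of the 15 mid-stage embryo markers 6 were lower (40%) and 1 higher (6.67%; median -0.10), with tin at -0.73, l(1)sc at -0.58, ac at -0.38, en at -0.25 and Mef2 at 0.16. The part of these in the ratios of RpS10a, RpL22-like and RpS28-like was not tested.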

How the data were processed

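Spots were read with Agilent Feature Extraction 10.1.1.1, per the file headers. In the deposited files each spot has an intensity as median foreground and background signals, the processed signals, and the authors' log10 ratios of Cy5 over Cy3. The authors' value table holds log2 ratios, which equalled log2 of processed Cy5 over Cy3, or Cy3 over Cy5 for the dye swap. It served only for that check of its direction.

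From the median signals, background was corrected by limma 3.58.1 (normexp, offset 50) in R 4.3.3. Ratios were normalized within arrays by loess with control spots at weight 0, and spots with outlier flags were left out. Spots were averaged per probe and kept probes per gene. Replicate 1 entered as the mean of its 2 arrays, and the 3 replicates, paired through the shared arrays, were tested against 0 by lmFit and eBayes, at a threshold of 0.05 after Benjamini-Hochberg adjustment over 14861 genes. A fit of the 4 arrays added the dye as a term (14856 genes). Both were also run on simulated ratios with independent noise on each array, and the outcome is not reported here. Because replicate 1 and its swap share their RNA, that simulation cannot check the error rates of the fits for these data. The labels call the replicates independently isolated. Identifiers were named through a RefSeq gene table, which matched the locus tag of 18121 probes, an older tag of 1155, a synonym of 146 and an accession of 115. Sequences and coordinates were not used here.

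Members, lists and tests were chosen with earlier results of these data known. Members named were the 12 lowest and 6 highest, those at 0.3 or farther from 0, members of paralogue pairs and those called with the dye as a term. Named too were those with probes called in opposite directions, some of which are not reported by name here. The members with the 4 largest absolute dye effects in the dye-term fit were added. From other lists up to 4 genes with the smallest p and those against the majority were named, of the 12 higher mitochondrial ones only the extremes; RpLP2, vas, Myc, dj and betaTub85D were named outside that rule, after values were seen. Array and list medians under other scalings were added after seeing the data.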

Additional observations from a re-analysis of the deposited data

Results flagged for a closer look

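In 14 of 58 results, a single array lay so far from the other 3 that its gap to the nearest of them, as a share of the whole range, exceeded Dixon's critical value for 4 samples. Chance marks about 1 in 20 such groups, and these 58 are not independent of each other. Some of the genes were also named for a large dye effect, so that rate does not hold for them. In all 14 the array apart was the dye swap of replicate 1, the only one with mir-3 ectopic RNA in Cy5. The gap's share was 0.882 for the array medians of all members and 0.845 for those of the large subunit. The swap was the higher array for RpS25 (0.965), RpL32 (0.952), RpLP1 (0.903), RpS9 (0.877), RpL27A (0.870), RpS30 (0.855), RpL8 (0.853), RpS10b (0.849) and RpL9 (0.846). It was the lower array for RpS19b (0.988), RpLP0 (0.891) and RpL22-like (0.863). Replicate 1 on its first array and the swap carried the same 2 RNA samples; what sets the swap apart beyond its dye orientation was not tested.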

How the results depend on the processing

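The 3-replicate result of 42 genes lower and 4 higher, with a median of -0.12 (large subunit -0.19, small -0.10), was recomputed under 15 alternatives, and the median stayed below 0 in each. Median centring gave 0 lower and 0 higher, with medians of -0.20 and, for the small subunit, -0.16. Processed signals gave 5 lower and 1 higher, with medians of -0.051, -0.053 for the large and -0.0067 for the small subunit. The small-subunit median was -0.14 with ribosomal protein probes at weight 0 in the loess and -0.19 for the brightest probe. Replicate 1 from its dye-swap array gave 12 lower and 2 higher, and replicate 1 from its first array, which leaves out the swap, 54 and 6. The dye as a term gave subunit medians of -0.073 and -0.049. Slide as a random block gave 26 lower. Without pairing the channels by replicate (no replicate block), 25 were lower. Leaving out a replicate gave 18 to 51 lower and 2 to 6 higher, 22 lower without replicate 2 and 18 without replicate 3, with medians of -0.17 to -0.12. The cause of these moves was not tested, apart from the smaller number of samples in the last. Shares of all genes called under the alternatives are not reported here.

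With the dye as a term (32 lower, 5 higher, median -0.05), 8 settings were chosen after seeing the data. Median centring gave 0 lower and 0 higher with a median of 0.28, processed signals gave 8 and 2, and loess with ribosomal protein probes at weight 0 a median of -0.078. Without replicate 2 or 3 the counts were 28 and 29 lower and 5 and 8 higher, with medians of -0.062 and -0.056. Under median centring, where the median of all genes was 0.079, 26 of the 37 genes called changed sign, and 0 did elsewhere. The other 11 kept their sign in all 8 settings. RpS10a, RpL37-1, RpS21, RpL8, RpL22-like, RpL28 and RpS28-like did so and were called in each setting but median centring. Of the 37 named genes called in the 3-replicate mean, RpS25 alone changed sign under an alternative of that test, to 0.016 in the dye-term fit; among the 18 not called, 11 did. RpS10a, RpL37-1, RpS21, RpL8, RpL22-like and RpS28-like passed in every alternative of the 3-replicate test but median centring, where the limma adjusted p was 0.16 to 0.86. A single array of the opposite orientation limits how well dye and genotype can be separated.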
